A study of Homo sapiens with 15 samples.

Results

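Interferon-stimulated genes (ISGs) are the genes that cells switch on when they sense interferons. Here 44 of them, taken as a listed set from the 57272 genes of the table and matched to symbols by GENCODE 44, were compared over the 5 conditions of the study. The filter on low counts kept 43 of the 44, and OAS1 was not tested. The cells were MRC-5, a strain of human fetal lung fibroblasts with a finite lifespan, grown at low oxygen, and each condition had 3 RNA libraries, 15 in all. The young cells were at population doubling (PD) 30. They carried the empty lentiviral vector pWPIR-GFP with a control siRNA (young empty-vector cells), pWPIR-GFP-TRF2 with a control siRNA (young TRF2 cells), or, as the column names show, the empty vector with an siRNA against LMNB1 (young siLMNB1 cells). The senescent cells had been infected with one of these vectors before they stopped dividing and received the control siRNA. All cells therefore carried a lentivirus and a transfected siRNA, and both are shared by the controls. The young cells were collected within days of infection, whereas the senescent cells kept the vector over many divisions. Per the study's methods, senescent TRF2 cells were collected at a later population doubling than senescent empty-vector cells, so the effect of TRF2 and the number of divisions cannot be told apart between these groups. The study describes replicates as biological, but the labels do not say whether these came from separate cultures, and p-values then measure the spread between these samples, which may be technical.

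In the textbook pathway, type I and type III interferons bind their receptors, the receptor kinases JAK1 and TYK2 become active, and STAT2 and IRF9 enter a complex that binds the interferon-stimulated response element (ISRE) in promoters. Type II interferon acts on another site, the GAS element. The products of ISGs block viral entry, translation and genome copying, process peptides for presentation, and tune the pathway itself. Fibroblasts keep a low basal level of many ISGs, and a rise of these genes has been described in some forms of senescence.

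The promoter sequences are shown because many of them carry a known response element of the pathway. RefSeq (GRCh38.p14) windows from 250 bases before to 50 bases after a start site matched 36 of the 44 genes, with 49 windows in all. No window was matched for TRIM22, IRF7, MX2, USP18, OASL, IFIT2, IFITM2 and OAS2. The ISRE core, GAAA followed after any 2 bases by GAAA and searched on both strands, was found in 25 of the 36 genes (69.4%), against 4.38% of the 27305 genes with a window. The GAS core TTCNNNGAA, which reads alike on both strands, was found in 14 of the 36 genes (38.9%), against 9.38% of all genes. IFI44L (chr1:78620198-78620497, + strand), the member with the deepest fall among those with a match, holds 2 copies. IFIT1 (chr10:89392373-89392672, + strand) holds 2 copies on the opposite strand, and IFI6 (chr1:27672143-27672442, − strand) holds 3. Each is printed 5′ to 3′ on the strand of the gene, with the ISRE cores in capitals:
IFI44L: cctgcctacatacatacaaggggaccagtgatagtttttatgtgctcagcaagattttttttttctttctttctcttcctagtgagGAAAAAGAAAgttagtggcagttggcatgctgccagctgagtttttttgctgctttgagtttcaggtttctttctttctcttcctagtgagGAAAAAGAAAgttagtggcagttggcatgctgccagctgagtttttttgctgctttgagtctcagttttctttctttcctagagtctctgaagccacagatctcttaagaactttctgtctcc
IFIT1: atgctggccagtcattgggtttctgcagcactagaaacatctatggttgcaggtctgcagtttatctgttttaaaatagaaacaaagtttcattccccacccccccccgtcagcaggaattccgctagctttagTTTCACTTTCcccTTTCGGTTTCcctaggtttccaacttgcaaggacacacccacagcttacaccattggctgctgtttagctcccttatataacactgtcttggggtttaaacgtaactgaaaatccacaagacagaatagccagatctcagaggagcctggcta
IFI6: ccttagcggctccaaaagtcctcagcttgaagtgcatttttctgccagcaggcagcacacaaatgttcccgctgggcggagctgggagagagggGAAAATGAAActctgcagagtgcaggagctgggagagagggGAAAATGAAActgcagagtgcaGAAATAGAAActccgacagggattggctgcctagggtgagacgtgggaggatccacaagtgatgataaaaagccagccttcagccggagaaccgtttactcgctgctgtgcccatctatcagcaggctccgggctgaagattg

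For 8 more members, the match nearest the start site is shown with 8 bases on either side, so that the same core can be compared between genes that fell with senescence (IFIT3, MX1, OAS3, IFI44), genes that rose (IFITM3, TAP1), ISG15 and RSAD2, which fell with siLMNB1. The windows lie at chr1:1013382-1013407 (ISG15), chr10:89332470-89332495 (IFIT3), chr21:41420561-41420586 (MX1), chr12:112938454-112938479 (OAS3), chr1:78649763-78649788 (IFI44) and chr2:6877624-6877649 (RSAD2), all on the + strand, and at chr11:320878-320903 (IFITM3) and chr6:32853815-32853840 (TAP1) on the − strand:
ISG15: gggaaaggGAAACCGAAActgaagcc
IFIT3: tccatcagTTTCACTTTCctttcccc
MX1: gcagaaatGAAACCGAAActgaattg
OAS3: ccgggcggGAAAACGAAAccagaaat
IFI44: acactgagTTTCAGTTTCctttctct
RSAD2: gtttcaacTTTCAGTTTCacatgtgg
IFITM3: actgttgaGAAACCGAAActactggg
TAP1: gctttcgaTTTCGCTTTCccctaaat
The same letters, GAAACCGAAA, stand in the windows of ISG15, MX1 and IFITM3, whose changes with senescence differed in direction. A match describes these letters only and was not tested as a binding site.

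Total counts per library lay between 26725885 and 43116046. TERF2, the gene of TRF2, stood at 21.9–25.5 CPM (counts scaled to library size with edgeR's TMM factors) in young empty-vector cells and at 128–307 CPM in young TRF2 cells, and reached 210–285 CPM in senescent TRF2 cells. LMNB1 fell from 58.6–61.0 to 2.36–2.91 CPM with siLMNB1, and stood at 4.60–5.65 CPM in senescent empty-vector cells. Of the checks of cell state, the proliferation genes MKI67, TOP2A and CCNB1 were lower, and the cell-cycle inhibitors CDKN1A and CDKN2A higher, in both senescence comparisons. With siLMNB1 the first 3 were also lower, and CDKN2A was also higher. The 8 fibroblast markers summed to 20033–33387 CPM in every library, the 4 endothelial markers to 1.49–4.15 CPM and the 5 epithelial markers to 18.9–37.1 CPM, with SFTPC at 0 throughout. The 6 leukocyte markers summed to 0.0294–0.505 CPM in young and 1.44–3.53 CPM in senescent cells, where CD14 had a mean of 1.89 CPM with the empty vector against 0.155 CPM in young cells, and CD3E was at 0 in all libraries. The part of CD14-expressing cells was not tested. In bulk RNA, fewer cells that express a gene and less of its RNA per cell cannot be told apart. The labels mark the 6 senescent libraries, and none of the young ones, as a reanalysis. Whatever this mark stands for and senescence cannot be told apart. Log2 counts relative to young empty-vector cells also rose with the GC content of the gene, by 0.458–0.821 for each 10 points in the senescent libraries and by −0.0049 to 0.130 in the young ones, and replicate 3 of the senescent empty-vector cells had the highest value. Values with offsets for GC content and length are therefore given where they end a call or turn a direction.

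In young empty-vector cells, levels spanned a wide range. Per kilobase of annotated exon, the antiviral membrane protein gene IFITM3 stood highest at 75.8 CPM per kilobase, followed by ISG15 at 43.0, IFITM2 at 42.6 and IFI6 at 34.3. At the other end of the tested members were IRF9 at 0.0352 and OAS2 at 0.0493 CPM per kilobase. OAS1 had 0 to 0.534 CPM in any library. IFITM3, ISG15, IFI6 and IFITM2 were also the 4 members with the highest level per kilobase in senescent empty-vector cells and in senescent TRF2 cells.

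**Figure D1:**
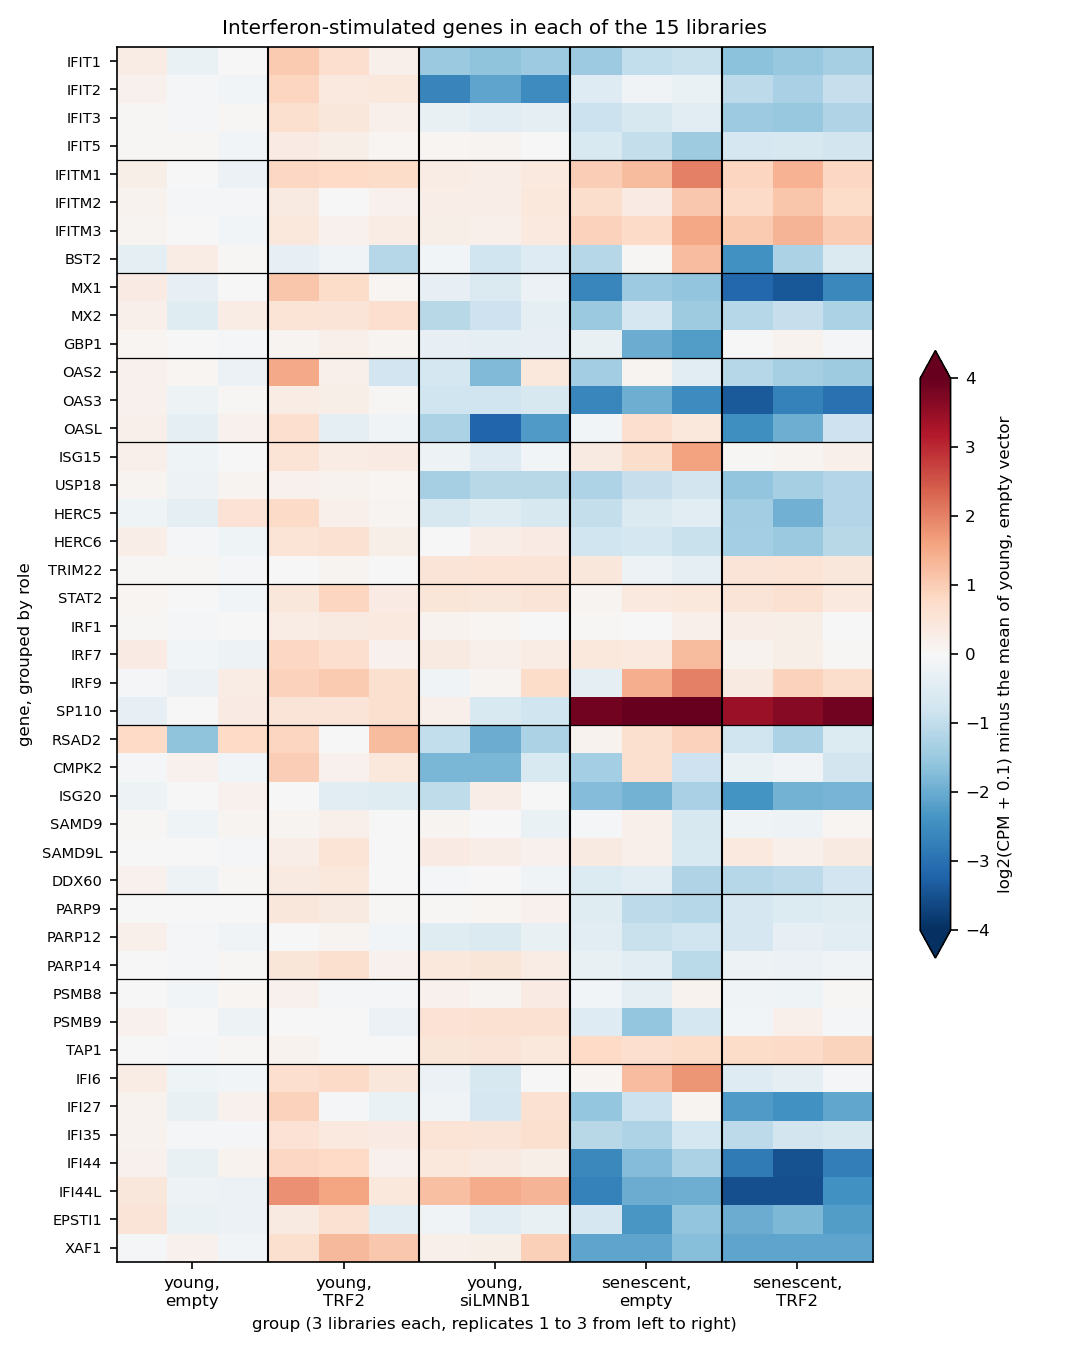
Level of each of the 43 tested interferon-stimulated genes (rows, grouped by role) in each library (columns, 3 per group), as log2(CPM + 0.1) minus the mean of the young empty-vector libraries. Red is higher and blue lower, with the colour scale ending at −4 and 4. SP110 and the IFITM genes are red in both senescent groups, while MX1, OAS3, IFI44, IFI44L and XAF1 are blue there.

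The first comparison asked how ISGs stand in senescent empty-vector cells against young ones. More ISGs were lower than higher. Of the 43 tested, 21 (48.8%) were called lower at an adjusted p below 0.05 (edgeR's quasi-likelihood test, Benjamini-Hochberg over 15799 genes), where 31.9% of all genes tested were, and 10 (23.3%) were called higher, where 32.7% of all genes were. The median log2 fold change of the members was −0.56, against 0.02 over all genes, and −0.35 with the GC and length offsets. With a log2 fold change of at least 1 also required, 11 were lower (11.8% of all genes) and 5 higher (16.7% of all genes).

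In TRF2 cells the same contrast gave a larger fall. Here 25 of 43 (58.1%) were called lower (30.1% of all genes) and 5 (11.6%) higher (28.2% of all genes), with a median of −0.999, against −0.02 over all genes. Requiring a log2 fold change of 1 left 20 lower (12.1% of all genes) and 1 higher (11.9% of all genes). The lower calls of both contrasts share 19 genes, which are IFIT1, IFIT3, IFIT5, MX1, MX2, OAS3, USP18, HERC5, HERC6, ISG20, DDX60, PARP9, PARP12, PARP14, IFI35, IFI44, IFI44L, EPSTI1 and XAF1. That is 90.5% of the lower calls with the empty vector and 76.0% of those with TRF2. The matching shares over all genes are not given here, so this overlap is not read as particular to the members. IFITM2, IFITM3, SP110 and TAP1 were called higher in both. Neither contrast called BST2, IRF1, CMPK2, SAMD9, SAMD9L or PSMB8. The 2 contrasts have no library in common, though in both the senescent libraries are labelled as a reanalysis and the young ones are not.

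**Figure D2:**
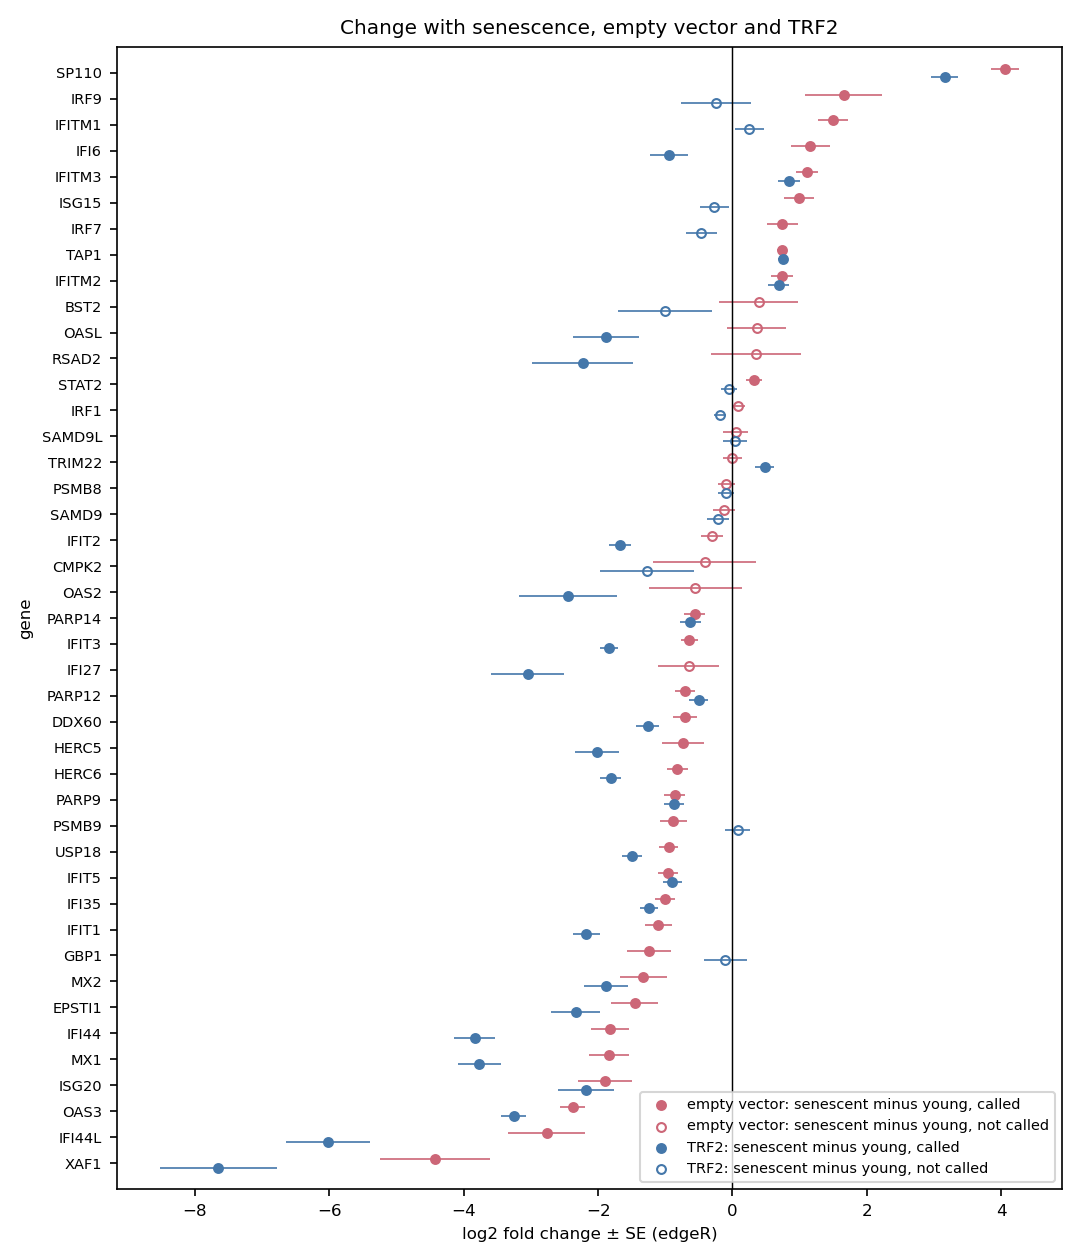
Log2 fold change ± SE (edgeR) of each tested member, senescent over young, in empty-vector cells (red) and in TRF2 cells (blue), ordered by the former. Filled points are called at an adjusted p below 0.05. IFI6 lies at 1.16 with the empty vector and at −0.95 with TRF2, and SP110 lies apart from the others on the right.

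The IFIT genes encode tetratricopeptide proteins that bind foreign RNA and block its translation. With the empty vector, 3 of the 4 were lower in senescent cells (31.9% of all genes), and with TRF2 all 4 were (30.1%). IFIT1 (chr10:89392546-89406487), which recognises uncapped or incompletely capped RNA, stood at 25.6, 17.3 and 20.4 CPM in young and 7.51, 10.6 and 11.2 CPM in senescent empty-vector cells, with no overlap. In TRF2 cells it went from 43.0, 33.2 and 23.8 to 6.66, 7.16 and 8.29 CPM. The log2 fold changes were −1.11 ± 0.20 (SE, adjusted p = 0.000153) and −2.18 ± 0.20 (adjusted p = 1.45e-07). IFIT3 (chr10:89327307-89377473), a partner of IFIT1, stood at 25.9, 23.8 and 26.1 CPM in young and 13.7, 16.2 and 18.5 CPM in senescent empty-vector cells. With TRF2, IFIT3 had 39.0, 34.7 and 29.3 CPM in young and 9.24, 8.76 and 10.8 CPM in senescent cells, so that every senescent library lay below every young one. These are log2 fold changes of −0.64 ± 0.13 and −1.84 ± 0.13. IFIT2 (chr10:89283694-89309271), linked to apoptosis in infected cells, had 16.1, 13.8 and 13.4 CPM in young and 10.1, 13.1 and 11.9 CPM in senescent empty-vector cells, a difference that missed the threshold (−0.30 ± 0.16, adjusted p = 0.11) and read 0.03 with the offsets. In TRF2 cells IFIT2 fell from 26.4, 19.0 and 19.2 to 6.88, 5.79 and 7.52 CPM (−1.68 ± 0.16, adjusted p = 2.45e-07). IFIT5 fell by 0.96 and 0.89 on the log2 scale in the 2 contrasts, and by 0.35 and 0.36 with the offsets.

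The IFITM genes encode small membrane proteins that hinder the fusion of viruses with cell membranes, and BST2 encodes tetherin, which holds budding virus at the cell surface. All 3 IFITM genes were called higher in senescent cells with the empty vector (32.7% of all genes), and 2 with TRF2 (28.2% of all genes). IFITM3 (chr11:319676-329475) stood at 233, 213 and 201 CPM in young and 407, 364 and 625 CPM in senescent empty-vector cells, and at 290, 240 and 266 against 443, 547 and 438 CPM with TRF2. The senescent libraries lay above the young ones in both, by 1.11 ± 0.16 (adjusted p = 1.5e-05) and 0.84 ± 0.16 (adjusted p = 0.000242). IFITM2 (chr11:303655-309397) had 74.7, 64.9 and 65.8 CPM in young and 112, 85.7 and 145 CPM in senescent empty-vector cells, and 88.0, 67.7 and 77.6 against 116, 147 and 114 CPM with TRF2. Its rise was 0.74 ± 0.16 and 0.69 ± 0.16, of which the first lost its call with the offsets (0.17, adjusted p = 0.227). IFITM1 (chr11:310041-315272) went from 5.16, 4.29 and 3.68 to 8.74, 10.6 and 17.7 CPM with the empty vector (1.497 ± 0.226, adjusted p = 2.59e-05), and had 7.80, 7.69 and 7.33 CPM in young and 8.03, 11.5 and 7.69 CPM in senescent TRF2 cells (0.25 ± 0.22, not called). In all 3 genes the highest senescent empty-vector library was replicate 3. BST2 was called in neither contrast. IFITM1 shares 31.6% and IFITM3 16.3% of exonic bases with another annotated gene, and the annotation and strand setting of the counting are not given in the sources used here.

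MX1, MX2 and GBP1 encode large GTPases, of which MX1 traps viral nucleoprotein complexes, MX2 acts at the nuclear pore and GBP1 coats intracellular pathogens. MX1 (chr21:41420020-41470071) had one of the largest falls of the list. It stood at 16.1, 10.1 and 12.9 CPM in young and 2.01, 4.63 and 4.28 CPM in senescent empty-vector cells, and at 27.9, 21.2 and 13.5 against 1.37, 1.15 and 2.05 CPM with TRF2. The log2 fold changes were −1.84 ± 0.30 (adjusted p = 5.15e-05) and −3.77 ± 0.32 (adjusted p = 5.26e-08). MX2 also fell in both, by 1.33 and 1.88 on the log2 scale. GBP1 was called lower with the empty vector (−1.24 ± 0.33), but its 3 senescent libraries differed widely, at 47.2, 14.7 and 12.1 CPM against 55.3–61.5 CPM in young cells. Without replicate 1 of the senescent empty-vector cells the value was −2.12. With TRF2, GBP1 had 62.3, 66.2 and 62.2 CPM in young and 57.6, 63.8 and 55.8 CPM in senescent cells (−0.11, not called, and 0.29 with the offsets).

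The OAS enzymes make the oligoadenylate messenger that activates RNase L when they meet double-stranded RNA, and OASL enhances RNA sensing instead. OAS3 (chr12:112938051-112976460) stood at 16.4, 12.5 and 15.03 CPM in young and 2.31, 3.67 and 2.46 CPM in senescent empty-vector cells. In TRF2 cells OAS3 had 17.98, 17.2 and 15.03 against 1.34, 2.13 and 1.77 CPM. These are log2 fold changes of −2.38 ± 0.18 (adjusted p = 1.13e-08) and −3.26 ± 0.19 (adjusted p = 3.79e-10). OASL (chr12:121017763-121039246) had 1.92, 1.26 and 1.86 CPM in young and 1.52, 2.67 and 2.24 CPM in senescent empty-vector cells, which overlap (0.36 ± 0.44, not called). In TRF2 cells OASL fell from 2.69, 1.28 and 1.503 to 0.223, 0.350 and 0.883 CPM (−1.88 ± 0.49, adjusted p = 0.00364). OAS2 was called lower with TRF2 (−2.45 ± 0.73), a call that was lost without replicate 1 of the young TRF2 cells (−1.51).

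ISG15 encodes a ubiquitin-like modifier, HERC5 and HERC6 ligases of its family, USP18 the protease that removes it and also dampens the receptor, and TRIM22 an antiviral ubiquitin ligase. ISG15 (chr1:1001138-1014540) stood at 42.6, 32.7 and 36.5 CPM in young and 47.9, 60.5 and 113 CPM in senescent empty-vector cells. The groups do not overlap, and replicate 3 of the senescent cells was the highest. The log2 fold change was 0.99 ± 0.22 (adjusted p = 0.00105), 0.52 without that replicate, and −0.09 with the GC and length offsets (adjusted p = 0.572), so that the direction of ISG15 depended on the correction. In TRF2 cells ISG15 had 53.7, 45.3 and 46.8 CPM in young and 38.1, 39.9 and 43.0 CPM in senescent cells, which was not called (−0.27 ± 0.22, adjusted p = 0.31) but was called lower with the offsets (−0.86). USP18 (chr22:18150118-18177397) fell in both, from 15.6, 12.5 and 15.7 to 6.17, 7.70 and 8.75 CPM with the empty vector (−0.95 ± 0.14) and from 16.5, 15.9 and 15.2 to 4.75, 5.76 and 6.33 CPM with TRF2 (−1.50 ± 0.15). HERC6 (chr4:88378739-88443097) fell from 9.94, 7.78 and 7.37 to 4.72, 5.07 and 4.41 CPM with the empty vector and from 12.1, 12.7 and 9.77 to 3.15, 2.90 and 3.76 CPM with TRF2, that is by 0.82 and 1.81 on the log2 scale. HERC5 fell by 2.02 with TRF2, while its fall of 0.73 with the empty vector lay at the threshold (adjusted p = 0.05) and lost its call with the offsets (−0.42) and without any one of 3 libraries (−0.76 to −0.38). TRIM22 (chr11:5689610-5737089) had 71.6, 78.9 and 71.4 CPM in young and 103, 107 and 99.4 CPM in senescent TRF2 cells (0.48 ± 0.15, adjusted p = 0.00974), and its empty-vector groups overlap, with 74.2, 75.0 and 68.3 CPM in young and 98.5, 63.0 and 56.1 CPM in senescent cells. That difference was not called, but without replicate 1 of the senescent cells it was called lower (−0.29, adjusted p = 0.007).

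Among the transcription factors of the list, STAT2 and IRF9 form the ISRE-binding complex, IRF1 and IRF7 induce interferons and ISGs, and SP110 is a nuclear body protein. SP110 (chr2:230165186-230225729) gave the largest rise of all members, from 1.15, 1.47 and 1.90 to 23.02, 25.6 and 26.2 CPM with the empty vector and from 2.17, 2.17 and 2.35 to 17.1, 19.6 and 22.97 CPM with TRF2. The log2 fold changes were 4.05 ± 0.21 (adjusted p = 1.30e-10) and 3.16 ± 0.20 (adjusted p = 1.17e-09). Other annotated genes cover 19.4% of the exonic bases of SP110. Among the 506 genes that shifted by at least 3 on the log2 scale the same way in both senescence contrasts, 46.4% share over 10% of their exonic bases with another gene, against 23.1% of the 15760 genes tested and annotated. The part that counting of overlapping genes plays in the value of SP110 was not tested. IRF9 (chr14:24161234-24168043) was at the low end, with 0.209, 0.176 and 0.298 CPM in young and 0.149, 0.778 and 1.20 CPM in senescent empty-vector cells. These groups overlap, and its call (1.65 ± 0.57, adjusted p = 0.018) was lost without replicate 3 of the senescent cells (1.01) and also without replicate 1 (1.60) or replicate 2 (1.49) of the young ones. IRF9 shares 27.2% of its exonic bases with another gene. IRF7 was called higher with the empty vector (0.74 ± 0.24), which fell to 0.36 and lost its call without replicate 3 of the senescent cells, was lost as well without replicate 3 of the young cells (0.64), and turned to −0.35 with the offsets. STAT2 (chr12:56341597-56360203) rose by 0.32 with the empty vector, from 79.3, 75.6 and 70.1 to 80.9, 98.3 and 101 CPM, but the call did not survive the removal of any one of 4 libraries (0.24 to 0.32) or the offsets (0.19).

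Of the 6 tested nucleic acid enzymes and restriction factors, 2 were called lower and 0 higher with the empty vector, and 3 lower with TRF2. Of all genes tested, 31.9% were lower and 32.7% higher with the empty vector, and 30.1% lower with TRF2. The count of 2 lower lies near that share. ISG20 (chr15:88635670-88656483), an exonuclease of single-stranded RNA, had 0.941, 1.116 and 1.27 CPM in young and 0.260, 0.222 and 0.389 CPM in senescent empty-vector cells (−1.90 ± 0.40, adjusted p = 0.000622), and fell by 2.18 with TRF2. DDX60, a helicase that aids RNA sensing, fell by 0.71 and 1.26, the first losing its call with the offsets (−0.21). RSAD2 (chr2:6865557-6898239), which encodes viperin and makes a chain-terminating nucleotide, was called lower with TRF2 (−2.23 ± 0.75) at under 1 CPM, a call that was lost without any one of 3 libraries (−2.26 to −1.90). SAMD9 and SAMD9L, restriction factors of poxviruses, and TRIM22 were not called with the empty vector but were called higher there with the offsets (0.51, 0.57 and 0.44). All 3 ADP-ribosyltransferases, PARP9, PARP12 and PARP14, which modify proteins in antiviral signalling, were lower in both contrasts, by 0.50 to 0.87 on the log2 scale.

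Of the antigen processing genes, TAP1 (chr6:32845209-32853816), a subunit of the peptide transporter, was steadily higher. TAP1 went from 61.6, 61.0 and 64.4 to 108, 100.2 and 104 CPM with the empty vector and from 69.3, 62.4 and 61.5 to 105, 105 and 116 CPM with TRF2, by 0.74 ± 0.08 (adjusted p = 5.37e-07) and 0.75 ± 0.08 (adjusted p = 4.59e-07). PSMB9 (chr6:32844136-32859851), an immunoproteasome subunit whose gene starts beside that of TAP1, fell with the empty vector from 8.96, 8.05 and 6.88 to 5.50, 2.67 and 4.80 CPM (−0.88 ± 0.20, adjusted p = 0.000966). With TRF2, PSMB9 had 7.93, 8.04 and 6.70 CPM in young and 7.30, 9.20 and 7.47 CPM in senescent cells. PSMB8, the neighbouring subunit gene, was called in neither. TAP1 shares 14.2% of its exonic bases with another annotated gene, and the part of this overlap was not tested.

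The remaining 7 members held the deepest falls. With TRF2 all 7 were lower (30.1% of all genes), and with the empty vector 5 were lower (31.9% of all genes) and IFI6 higher. XAF1 (chr17:6755447-6775647), a pro-apoptotic gene, had 30 counts in all in young empty-vector cells and 1 in the senescent ones, a ratio of 28.4 with a 95% exact counting interval of 4.72 to 1158. In TRF2 cells it had 79 counts in young and 0 in senescent libraries and was at least 8.44-fold lower, with a floor of 3 counts per library. XAF1 shares 38.3% of its exonic bases with another gene. IFI44L (chr1:78619902-78646145), which restrains the interferon response, stood at 1.46, 0.881 and 0.856 CPM in young and 0.0744, 0.185 and 0.194 CPM in senescent empty-vector cells (−2.77 ± 0.57, adjusted p = 0.000504). With TRF2, IFI44L had 3.94, 3.29 and 1.41 CPM in young cells and 0, 0 and 0.114 CPM in senescent ones (−6.02 ± 0.63, adjusted p = 5.23e-07). The 3 senescent TRF2 libraries held 0, 0 and 4 counts, and without replicate 3 the fitted value was −9.53, so its size depends on the prior count and is no bound. Its neighbour IFI44 (chr1:78649796-78664078) fell from 5.47, 3.99 and 5.36 to 0.744, 1.41 and 1.98 CPM and from 8.72, 8.55 and 5.54 to 0.605, 0.350 and 0.627 CPM. These are log2 fold changes of −1.82 ± 0.28 (adjusted p = 2.64e-05) and −3.83 ± 0.30 (adjusted p = 2.00e-08). IFI35, which regulates the response in the cytosol, fell by 1.01 and 1.24, and EPSTI1 by 1.45 and 2.34. IFI27, a mitochondrial and nuclear membrane protein gene, was called lower with TRF2 (−3.05 ± 0.54) and not with the empty vector (−0.65 ± 0.46), where it read −1.33 and was called without replicate 3 of the senescent cells (adjusted p = 0.0253).

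IFI6 (chr1:27666064-27672212), which encodes a small membrane protein that protects mitochondria and blocks flavivirus replication, was the one member called in opposite directions. It stood at 38.9, 27.9 and 29.6 CPM in young and 33.5, 74.2 and 107 CPM in senescent empty-vector cells, so that replicate 1 of the latter lay within the young range (1.16 ± 0.29, adjusted p = 0.0022). Without replicate 3 of the senescent cells the value was 0.73, and with the offsets 0.59 (adjusted p = 0.027). In TRF2 cells IFI6 went from 50.8, 54.4 and 43.7 to 22.2, 24.9 and 30.1 CPM, with no overlap (−0.95 ± 0.29, adjusted p = 0.00978). IFI6 shares 23.1% of its exonic bases with another annotated gene, and the part of this sharing was not tested.

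Whether the change with senescence differed between TRF2 and the empty vector was tested as an interaction, the change in TRF2 cells minus that in empty-vector cells. Of the 43 members, 6 were called (13.95%), all lower with TRF2, where 0.956% of all genes were called in that direction and 1.13% in either. They were IFI6 (−2.11 ± 0.41, adjusted p = 0.027), IFI44 (−2.01 ± 0.42, adjusted p = 0.0336), MX1 (−1.93 ± 0.44, adjusted p = 0.0425), IFIT2 (−1.38 ± 0.23, adjusted p = 0.0166), IFIT3 (−1.19 ± 0.18, adjusted p = 0.0128) and HERC6 (−0.99 ± 0.22, adjusted p = 0.0389). The interaction lay below 0 in 37 of the 43, with a median of −0.88, against −0.03 over all genes. ISG15 (−1.26 ± 0.31), IFITM1 (−1.24 ± 0.31) and IFIT1 (−1.07 ± 0.28) missed the threshold, at adjusted p = 0.066, 0.067 and 0.084. IFI44L had the lowest value (−3.25 ± 1.06) at few counts and was not called. On the other side, PSMB9 (0.96 ± 0.27) and GBP1 (1.13 ± 0.45) lay above 0 and were not called. The count of 6 rested on single libraries. It was 20 without replicate 1 of the senescent empty-vector cells. These 20 included GBP1 (2.02), PSMB9 (1.16) and TRIM22 (0.77), which were then called higher with TRF2. The count was between 0 and 3 without any one of 9 others, with 0 without replicate 1 or 2 of the senescent TRF2 cells or replicate 2 of the young empty-vector cells.

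**Figure D3:**
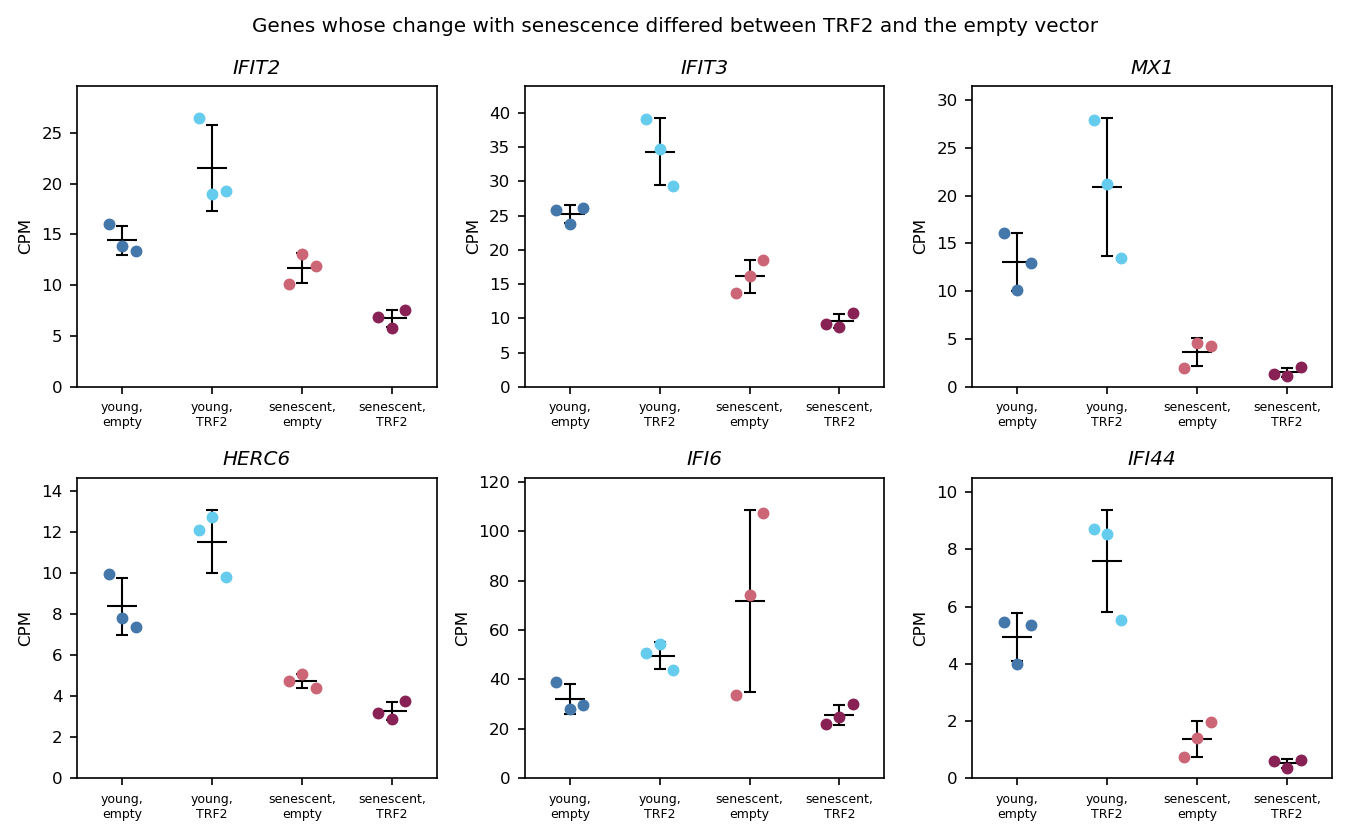
CPM of the 6 members called in the interaction, in young and senescent cells with the empty vector and with TRF2; points are libraries, bars the mean ± SD (n = 3). In each gene the young TRF2 mean lies above the young empty-vector mean and the senescent TRF2 mean lies lowest of the 4.

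The interaction has a part in young and a part in senescent cells. In young cells, TRF2 called 0 of the 43 members in either direction in the edgeR fit of all 15 libraries, where 0.152% of all genes were called higher and 0.0253% lower, although 40 of 43 fitted values lay above 0, with a median of 0.35, against 0.01 over all genes. At an unadjusted p below 0.05 there were 16 of the 43 members, where 9.66% of all genes passed that level. Other settings gave more calls, with 3 members higher by DESeq2's Wald test and, with edgeR, 8 without the filter on low counts and 11 in a fit of only the 6 libraries compared. The largest values were those of IFI44L, at 1.46, 0.881 and 0.856 CPM with the empty vector and 3.94, 3.29 and 1.41 CPM with TRF2 (1.44 ± 0.39, adjusted p = 0.19), XAF1 (1.21 ± 0.42) and IRF9 (1.13 ± 0.58). STAT2 had 79.3, 75.6 and 70.1 CPM with the empty vector and 102, 135 and 93.7 CPM with TRF2 and came nearest to the threshold (0.55 ± 0.12, adjusted p = 0.10). IFIT1 (0.66), IFIT2 (0.58), IFIT3 (0.45), MX1 (0.68), IFI44 (0.63), IFI6 (0.63) and HERC6 (0.46) also had values above 0 without a call.

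Between the senescent groups, 10 members (23.3%) were lower with TRF2 than with the empty vector, where 6.41% of all genes were, and 3 (6.98%) were higher, where 4.87% were. The lower genes were IFIT2, IFIT3, MX1, OAS3, OASL, ISG15, HERC6, IFI6, IFI27 and IFI44, with log2 fold changes between −2.11 (OASL) and −0.53 (HERC6). IFIT3 had the smallest adjusted p, with 13.7, 16.2 and 18.5 CPM with the empty vector and 9.24, 8.76 and 10.8 CPM with TRF2 (−0.75 ± 0.13, adjusted p = 0.00206). ISG15 fell by 0.87 (adjusted p = 0.0198), and by 0.42 without replicate 3 of the senescent empty-vector cells. The higher genes were GBP1 (1.26 ± 0.33), PSMB9 (0.88 ± 0.20) and TRIM22 (0.51 ± 0.15), and the empty-vector libraries of these genes lay far apart, as given above. Without each library in turn, only IFIT2, IFIT3 and IFI6 of these 13 genes kept their call throughout. GBP1 read 2.15 without replicate 1 of the senescent empty-vector cells. A fit of only these 6 libraries called 0 members in either direction, and the cause was not tested. This contrast, the interaction and the senescence contrasts share libraries, so their values are not independent. TOP2A, MKI67, CCNB1 and LMNB1 were also lower in senescent TRF2 cells than in senescent empty-vector cells, and 7 of the 8 fibroblast markers were higher, with a median log2 fold change of 0.51 over the 8. Their part in these results was not tested.

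The knock-down of Lamin B1 in young cells asked how ISGs stand when this lamina protein is lowered. Proliferation genes were also lower and CDKN2A higher there, as given above, and their part was not tested. The share of members called was near that of all genes in both directions, with 8 of 43 (18.6%) lower, where 16.1% of all genes were, and 6 (13.95%) higher, where 16.4% were. The median was −0.06, against 0.04 over all genes. Of the 8 fibroblast markers, 5 were higher and 2 lower in this contrast, and their part was not tested. With a log2 fold change of at least 0.58 also required, 6 were lower (8.06% of all genes) and 2 higher (10.3% of all genes). Without that threshold, the 8 lower genes were IFIT1, IFIT2, IFIT3, OAS3, OASL, USP18, RSAD2 and PARP12, and the 6 higher ones TRIM22, STAT2, PSMB9, TAP1, IFI35 and IFI44L.

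IFIT2 fell from 16.1, 13.8 and 13.4 to 2.23, 3.28 and 2.42 CPM with siLMNB1, with every knock-down library under every control (−2.45 ± 0.18, adjusted p = 7.60e-08). IFIT1 fell from 25.6, 17.3 and 20.4 to 7.37, 6.80 and 7.58 CPM (−1.54 ± 0.20, adjusted p = 2.89e-05), and USP18 from 15.6, 12.5 and 15.7 to 5.70, 6.74 and 6.74 CPM (−1.19 ± 0.14, adjusted p = 1.37e-05). OASL fell from 1.92, 1.26 and 1.86 to 0.623, 0.0928 and 0.264 CPM (−2.38 ± 0.53, adjusted p = 0.00255). RSAD2 had 0.593, 0.0294 and 0.595 CPM with the control siRNA and 0.0983, 0 and 0.0659 CPM with siLMNB1. Its groups overlap, and the call (−2.75 ± 0.89, adjusted p = 0.0263) was lost without any one of 4 libraries (−2.94 to −2.25). The neighbouring gene CMPK2, transcribed away from RSAD2, had a value of −2.18 ± 0.89 that was not called. IFIT5, in the same cluster as the other IFIT genes, had 40.4, 41.2 and 38.9 CPM with siLMNB1 against 40.2, 39.6 and 35.8 CPM (0.06 ± 0.14, not called). The calls of IFIT3 (−0.38) and PARP12 (−0.45) were each lost without some single libraries.

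Among the genes that rose, IFI44L went from 1.46, 0.881 and 0.856 to 2.49, 3.09 and 2.81 CPM (1.39 ± 0.39, adjusted p = 0.0124), whereas it fell in both senescence contrasts. IFI44, its neighbour, had 6.59, 6.25 and 5.82 CPM with siLMNB1 against 5.47, 3.99 and 5.36 CPM (0.33 ± 0.24, not called). IFI35 rose from 16.98, 14.5 and 14.7 to 22.3, 22.2 and 23.9 CPM (0.57 ± 0.14, adjusted p = 0.0048), and it too fell with senescence. PSMB9 rose from 8.96, 8.05 and 6.88 to 11.9, 12.2 and 12.1 CPM (0.60 ± 0.18, adjusted p = 0.0202), TRIM22 from 74.2, 75.0 and 68.3 to 104, 106 and 103 CPM (0.52 ± 0.15), STAT2 from 79.3, 75.6 and 70.1 to 104, 103 and 108 CPM (0.48 ± 0.12), and TAP1 from 61.6, 61.0 and 64.4 to 87.8, 88.5 and 83.1 CPM (0.47 ± 0.08, adjusted p = 0.00024). In all 6 genes the knock-down libraries lay above the controls. The calls of IFI44L and PSMB9 were lost without some single libraries. ISG15 had 32.0, 26.0 and 34.0 CPM with siLMNB1 (−0.28 ± 0.22, not called), and −0.49 with the offsets, which was called.

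**Figure D4:**
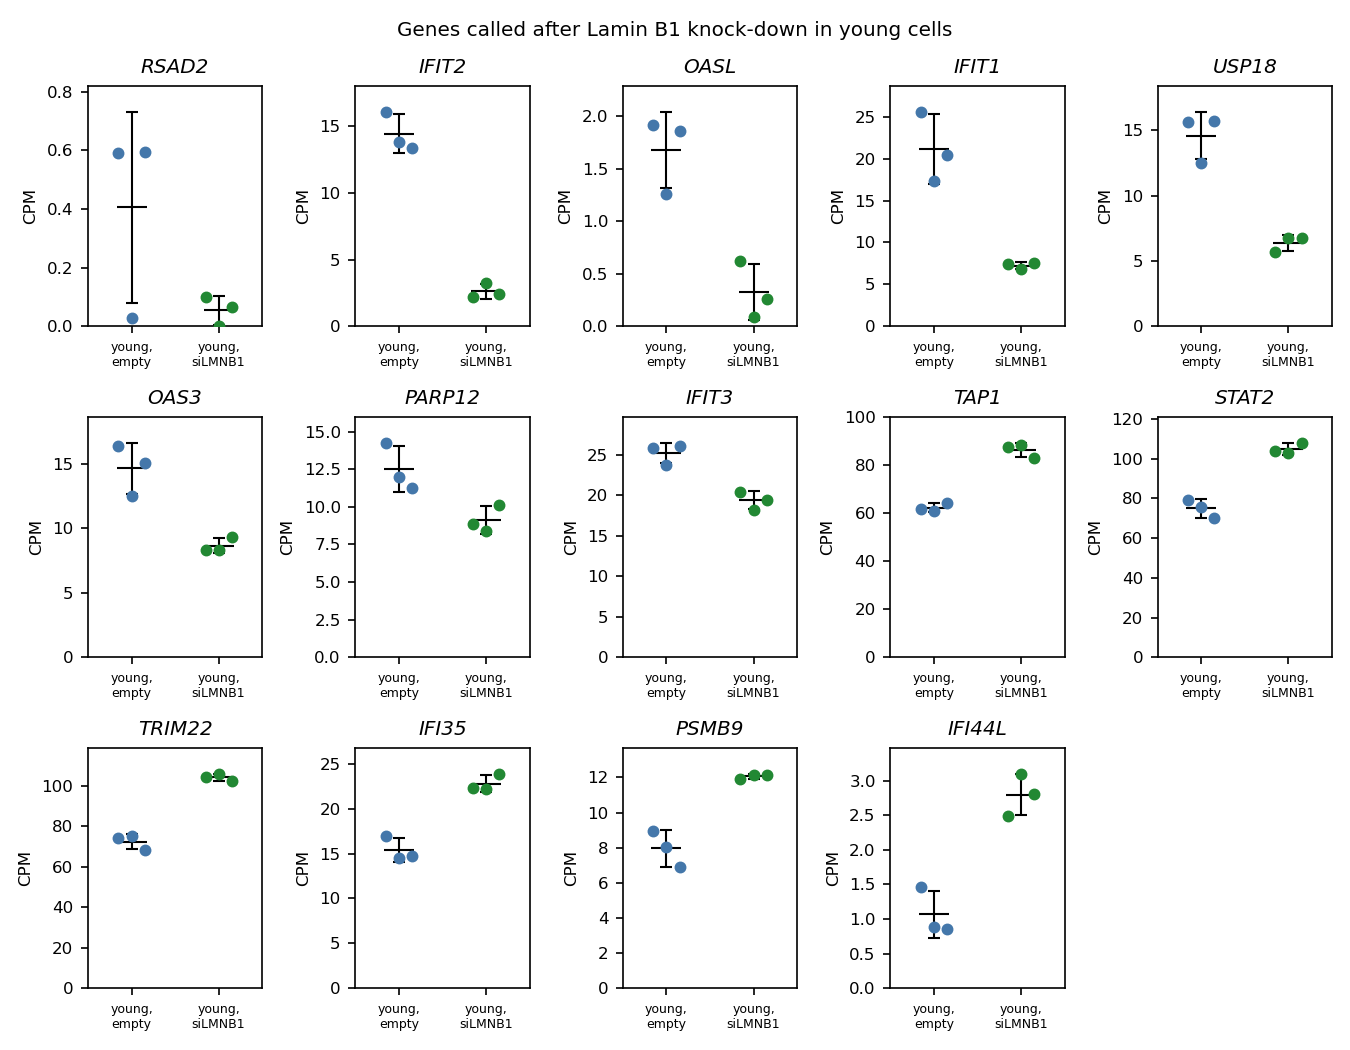
CPM of the 14 members called between young siLMNB1 cells (green) and young empty-vector cells with the control siRNA (blue), ordered from the deepest fall to the largest rise; points are libraries, bars the mean ± SD (n = 3). Only RSAD2 has overlapping groups.

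Across the 3 contrasts of senescence and knock-down, TAP1 was higher in all and IFIT1, IFIT3, OAS3, USP18 and PARP12 were lower in all. The share of all genes called one way in all 3 is not given here, so this is a description. As given above, the siLMNB1 calls of IFIT3 and PARP12 were lost without some single libraries. The siLMNB1 and empty-vector senescence contrasts share the young empty-vector libraries. In RSAD2, OASL and IFIT2, called lower with siLMNB1 and in TRF2 senescence, the empty-vector senescence contrast gave no call.

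Position and base composition moved with the direction. Of the tested members, 5 lie within 2 Mb of a chromosome end, ISG15 on 1p and IFITM1, IFITM2, IFITM3 and IRF7 on 11p. All 5 were called higher in senescent empty-vector cells, against 5 of the 38 elsewhere and 32.7% of all genes tested. The 5 near chromosome ends are also the most GC-rich, with 57.6–67.2% GC in their exons. Their median was 58.1%, against a median of 46.3% for the others. With the GC and length offsets 2 of the 5, IFITM1 (0.87) and IFITM3 (0.63), were called higher. With TRF2, 2 of the 5 were called higher without offsets (28.2% of all genes), IFITM2 and IFITM3. With the offsets these 2 were again called higher, and ISG15 (−0.86) and IRF7 (−1.17) were called lower. Of the 8 members with 55% GC or more, 6 were higher and 1 lower with the empty vector. Of the 35 with less GC, 4 were higher and 20 lower, where 32.7% of all genes were higher and 31.9% lower. Over the 43 members, which share libraries and base composition, Spearman's rho of the log2 fold change with GC was 0.478 without and 0.169 with the offsets, given as a description. IFI6 (56.3% GC), IFI35 (57.1%) and BST2 (57.5%) lie away from chromosome ends and were higher, lower and not called with the empty vector. In the 5 members near the ends, which have the highest GC of those tested, position and GC content cannot be told apart. Shares among all genes near chromosome ends or of like GC content are not given here.

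**Figure D5:**
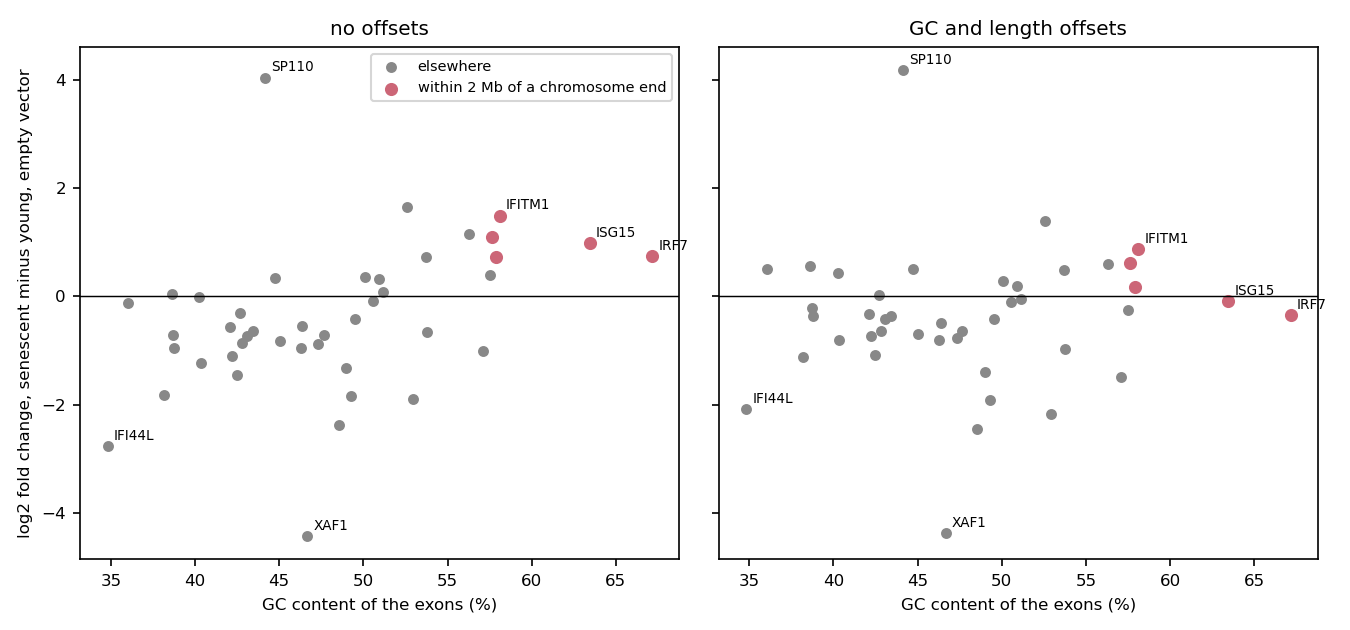
Log2 fold change between senescent and young empty-vector cells against the GC content of the exons of each tested member, without (left) and with (right) GC and length offsets; red points lie within 2 Mb of a chromosome end. ISG15 goes from 0.99 to −0.09 and IRF7 from 0.74 to −0.35 with the offsets, while IFITM1 stays above 0 at 0.87.

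By promoter, 15 of the 25 members with an ISRE core were lower and 5 higher with senescence in empty-vector cells, and 4 of the 10 tested members whose windows lack these letters were lower and 3 higher, where 31.9% of all genes were lower and 32.7% higher. In TRF2 cells 17 of 25 with the core were lower and 2 higher, and 3 of 10 without it were lower and 1 higher, where 30.1% of all genes were lower and 28.2% higher. With siLMNB1, 5 of 25 with the core were lower and 2 higher, against 0 lower and 3 higher of 10 without it, where 16.1% of all genes were lower and 16.4% higher. These counts are a description of small groups with no test.

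The other genes of the pathway were looked at for the level at which ISGs are controlled. Of 9 interferon ligand genes, 1 passed the filter, IFNE, whose product is a type I interferon of epithelia, and it stood below 1 CPM on average in every group. IFNE was called in neither senescence contrast, but it was lower in senescent TRF2 than in senescent empty-vector cells (−2.55 ± 0.71, adjusted p = 0.0311). IFNG and IFNA2 had 0 counts in all libraries and IFNB1 had 0 or 1. Among the receptors, IFNGR1 and IFNGR2, the chains of the type II receptor, were higher in both senescence contrasts (0.50 and 0.45 for IFNGR1, 0.27 and 0.25 for IFNGR2). IFNAR2, a chain of the type I receptor, fell from 6.63 ± 0.52 to 0.105 ± 0.060 CPM (SD, n = 3) with the empty vector, and IL10RB, a chain of the type III receptor, from 21.2 ± 1.3 to 0.709 ± 0.032 CPM, with the same direction in TRF2 cells. IFNAR2 and IL10RB are neighbours, and other genes cover 27.7% of the exonic bases of IFNAR2 and 21.6% of those of IL10RB. The part of this overlap was not tested. IFNAR1, the other chain of the type I receptor, was not called.

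The receptor kinase JAK1 was lower in both senescence contrasts (−0.59 and −0.41), and TYK2 higher (0.69 and 0.34), though TYK2 read −0.11 and −0.29 with the offsets. IRF2, a repressor at ISREs, fell (−0.62 and −0.35), and STAT3, which serves other cytokines, rose (0.52 and 0.82). The negative regulators SOCS1 and PTPN2 were lower in both, by 1.19 and 1.22 with the empty vector.

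Of the antigen presentation genes outside the list, 5 of 13 tested were higher and 2 lower with the empty vector, and 4 higher and 4 lower with TRF2. The shares of all genes were 32.7% higher and 31.9% lower with the empty vector, and 28.2% higher and 30.1% lower with TRF2. HLA-C, a class I heavy chain, rose by 1.16 and 0.87, and HLA-E by 1.10 and 1.14. PSME2 and ERAP1 were lower in both contrasts, and B2M, the class I light chain, and NLRC5 were lower with TRF2. With siLMNB1, 5 were higher (16.4% of all genes) and 2 lower (16.1% of all genes). HLA-B (0.61), HLA-C (0.64) and B2M (0.31) were among the higher ones, beside TAP1 and PSMB9 of the list, and the lower ones were TAPBP and ERAP2. Of 16 other inducible antiviral genes tested, 8 were lower and 4 higher with the empty vector, and 10 lower and 4 higher with TRF2, against those same shares of all genes. IFIH1, the RNA sensor MDA5, had log2 fold changes of −1.12 and −2.53, and LGALS3BP, a secreted glycoprotein, rose by 1.52 and 1.62. PML and LY6E, 2 of the 4 that rose, read −0.03 and −0.01 with the offsets in empty-vector cells.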

How the data were processed

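The deposited table holds raw gene counts, which the authors obtained from STAR after trimming with Trimmomatic, on GRCh38. The annotation release and strand setting of the counting are not given in the sources used here. Groups came from the labels and column names. Genes were named with GENCODE 44, in which 324 genes holding 0.0563% of the counts were absent. Exonic overlap, GC content and length came from the union of annotated exons. The members and lists were chosen with earlier results of these data known. Counts were normalized with TMM, filtered with filterByExpr and fitted with edgeR 4.0.16 under R 4.3.3, all libraries together and 1 mean for each group (10 residual degrees of freedom). The quasi-likelihood test was adjusted by Benjamini-Hochberg over 15799 genes, and calls needed an adjusted p below 0.05. Standard errors are the absolute log2 fold change divided by the square root of F. Offsets came from loess curves (span 0.3, prior count 1) of each library on GC content and length. Alternatives were DESeq2 1.42.0 (size factors, Wald test), no filter, only the libraries compared, a replicate block, fold change thresholds (log2 of 1, or 0.58 for siLMNB1 and TRF2), members overlapping no other gene, and each library left out. The steps were tested on simulated data. Values in every library were given for the 5 largest and 5 smallest called log2 fold changes of both senescence contrasts and of siLMNB1, members called in the interaction and ISG15. Per-library values of GBP1, IFIT5 and of members outside this rule in a given contrast were added after their values were seen. The study's methods state no covariate, so the main fit used no block for replicate number. Counting intervals cover counting error only. Some results are not reported here.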

Additional observations from a re-analysis of the deposited data

Results flagged for a closer look

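The change with senescence differed between TRF2 and the empty vector, by the test of the difference itself, in 6 listed genes and in 1 antiviral gene outside the list. The change in TRF2 cells minus that in empty-vector cells was −1.38 for IFIT2, −1.19 for IFIT3, −1.93 for MX1, −0.99 for HERC6, −2.11 for IFI6 and −2.01 for IFI44, each on the log2 scale. Outside the list, IFIH1 had −1.41 (edgeR, adjusted p = 0.0297). IFIT2 and IFIT3 kept their calls without 8 and 9 of the 12 libraries in turn, MX1, HERC6 and IFI44 without 3 and IFI6 without 4. All 7 values kept their sign and their call with the GC and length offsets. Groups of 3 libraries were not tested for outlying samples.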

How the results depend on the processing

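Senescence with the empty vector gave 10 higher and 21 lower calls among 43 members (median −0.565), of which a fold change threshold left 5 and 11. The members that overlap no other gene number 24, and they held 2 higher and 16 lower calls with a median of −0.776. The median over the tested members was −0.611 with only the libraries compared, −0.353 with GC and length offsets and −0.358 with offsets and replicate block. With TRF2 (5 higher, 25 lower), 1 higher call passed the threshold. Of the 24 members without overlap, 0 were higher and 18 lower, with a median of −1.66. The median over the tested members was −1.12 without the filter, −1.14 with the replicate block, −1.17 with offsets and −1.15 with both. For siLMNB1, higher calls numbered 11 with only the libraries compared, 2 with the threshold and 3 without overlap, where 5 were lower; the median was −0.0035 with only the libraries compared and −0.125 without overlap. For TRF2 in young cells, 3 members were higher by DESeq2's Wald test, 8 without the filter and 11 with only the libraries compared. Between the senescent groups, only the libraries compared gave 0 higher and 0 lower, offsets gave 6 higher with or without the block, and members without overlap gave 1 higher and 5 lower. The interaction had 16 calls by DESeq2's Wald test, 17 without the filter, 2 with only the libraries compared, 10 with offsets and 2 without overlap.

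With the offsets, without and with the block, IFIT2 read 0.0288 and 0.0330 and ISG15 −0.0870 and −0.0845 in empty-vector senescence. IRF7 read −0.351 and −0.325 there, and GBP1 0.292 and 0.293 with TRF2. Each turned its direction. The settings with offsets add the correction for GC content and length and also leave out genes without a GC value. Whether replicate numbers pair the samples was not settled. Of 30 pairs of libraries with the same number, 6 had correlated deviations over 0.1 (−0.203 to 0.372). The highest value between libraries with different numbers was 0.189. The replicate block gave 10 higher and 20 lower calls with the empty vector and 4 calls in the interaction.

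Leaving out each library in turn gave 7 to 10 higher and 20 to 23 lower with the empty vector (median −0.629 to −0.307), 5 higher and 24 to 26 lower with TRF2 (−1.29 to −0.895), 4 to 6 higher and 5 to 9 lower with siLMNB1 (−0.151 to 0.00952, above 0 without replicate 3 of the young empty-vector cells), 0 with TRF2 in young cells (0.291 to 0.468), 0 to 6 higher and 3 to 16 lower between the senescent groups (−0.553 to −0.285), and 0 to 20 in the interaction. The targeted genes, added after seeing the data, stayed at 2.54 to 3.24 and 3.07 to 3.31 (TERF2, young and senescent) and −4.53 to −4.40 (LMNB1). Low counts limit XAF1, IFI44L, RSAD2, IRF9 and OASL.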
